A study of Mus musculus with 8 samples.

Results

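Gene expression in melanomas of SA mice at days 20 and 60 was set against that of WT mice at day 38, so that the SA tumours lay on either side of the WT tumours in time. No day was shared by the SA and WT arrays compared, so genotype and day cannot be told apart in these differences. Rises and falls below are of SA relative to WT. A probe was taken as a member where both WT arrays lay above, or both below, the full range of the 4 SA arrays on the log2 intensity scale. Of 23978 probes with a gene symbol, 6245 met this rule (26%), 2830 with the SA arrays higher (11.8%) and 3415 with the SA arrays lower (14.2%). A further 674 probes had 1 WT array above and 1 below the SA range and were not members. After dim probes were left out and the brightest probe was kept for each gene, 3967 of 11661 measurements lay outside the range (34%), 3673 of them for named genes.

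The SA mice carried BrafCA, Tyr::CreER and Ifnar1SA on a C57BL/6 background, and the WT mice carried BrafCA, Tyr::CreER and Ifnar1+/+ on the same background. BrafCA is an allele that Cre turns into oncogenic Braf, and Tyr::CreER places a tamoxifen-dependent Cre under the promoter of the pigment enzyme tyrosinase, so that Braf is switched on in melanocytes and not in the skin around them. 4-hydroxytamoxifen was painted on the ear, flank and tail of all mice on days 2 to 4 after birth, and whole melanomas were taken 20 or 60 days later from SA mice and 38 days later from WT mice. Each group held 2 arrays, and nothing in the labels ties the arrays of 1 group to separate animals, so p-values measure the spread between these arrays. The genotype field of the labels was followed, although the treatment protocol names Ifnar1-/- mice where that field gives Ifnar1SA. A further pair of SA arrays from day 38 entered the variance estimate and is quoted beside some results, but was not used to choose members.

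Type I interferons bind a receptor made of the chains Ifnar1 and Ifnar2 and signal through the kinases Jak1 and Tyk2 to a set of antiviral genes, and the SA form of Ifnar1 lacks the site through which the receptor is tagged for degradation. Oncogenic Braf drives the MAPK pathway, and melanocytes that carry it can stop dividing in a state called oncogene-induced senescence or go on to form melanoma. Melanocytes make pigment under the transcription factor Mitf, descend from the neural crest, and share that origin with the Schwann cells of nerves.

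The label of melanoma was checked against pigment cell genes, which were chosen for this check with their values known. Dct, a melanin enzyme, had log2 intensities of 10.83 and 16.08 in SA at day 20 and 15.78 and 16.09 at day 60, against 12.77 and 12.60 in WT. Tyrp1, another melanin enzyme, read 9.51 and 13.96 in SA at day 20 and 14.51 and 14.74 at day 60, against 10.26 and 9.97 in WT. Pigment cell RNA was thus measured in all 3 groups, but replicate 1 of SA at day 20 read below both WT arrays for both genes. Within the SA day 20 group the 2 arrays differed by over 2-fold in 1145 of 11661 measurements, against 574 in SA at day 60 and 160 in WT, and their correlation across genes was 0.944, against 0.970 and 0.988. The Y-linked gene Eif2s3y read 11.55 and 11.37 in SA at day 20 and 11.80 and 11.70 at day 60, against 11.76 and 11.64 in WT, and Xist lay between 6.84 and 7.56 on these 6 arrays, so the groups compared had the same sex-linked pattern. The SA day 38 arrays read 6.11 and 6.20 for Eif2s3y and 9.69 and 9.20 for Xist and did not share it.

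At a Benjamini-Hochberg adjusted p under 0.05, limma called 764 measurements between the mean of the SA days and WT (6.55%), of which 361 rose in SA (3.1%) and 403 fell (3.46%). Of these, 761 lay outside the SA range, and 213 rises and 218 falls were at least 2-fold. The median absolute difference of the called measurements was 1.07 on the log2 scale, and the largest was 5.40. Since 34% of all measurements met the range rule and the rule and the test read the same arrays, neither supports the other. Most members lay close to the SA range, with a median gap of 0.20 between the nearer WT array and the nearest SA array, and 207 had a gap over 1, 87 with SA higher and 120 with SA lower. Just inside the threshold were Mex3d, with a gap of 3.21e-05 and SA higher, and Fen1, with a gap of 0.00038 and SA lower. Just outside it were Tatdn2 at -0.000203 and Hspa8 at -3.65e-06. That Hspa8 probe lay at the top of the array's scale, and a second Hspa8 probe lay outside the range with a difference of -0.63.

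The calls changed with the arrays used. Without replicate 1 or replicate 2 of WT, 0 measurements were called by limma, with 1794 and 1658 at an unadjusted p under 0.05, and without replicate 1 or 2 of SA at day 60, 0 and 1 were called, with 2756 and 3034 at an unadjusted p under 0.05, against 3212 with all arrays. Without replicate 1 or 2 of SA at day 20, 790 and 1248 were called. When the SA day 38 arrays were added to the SA side, 246 were called, and 1082 measurements lay above and 1444 below WT outside the range of all 6 SA arrays. Of the 761 called members, 658 were still outside that wider range.

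**Figure D1:**
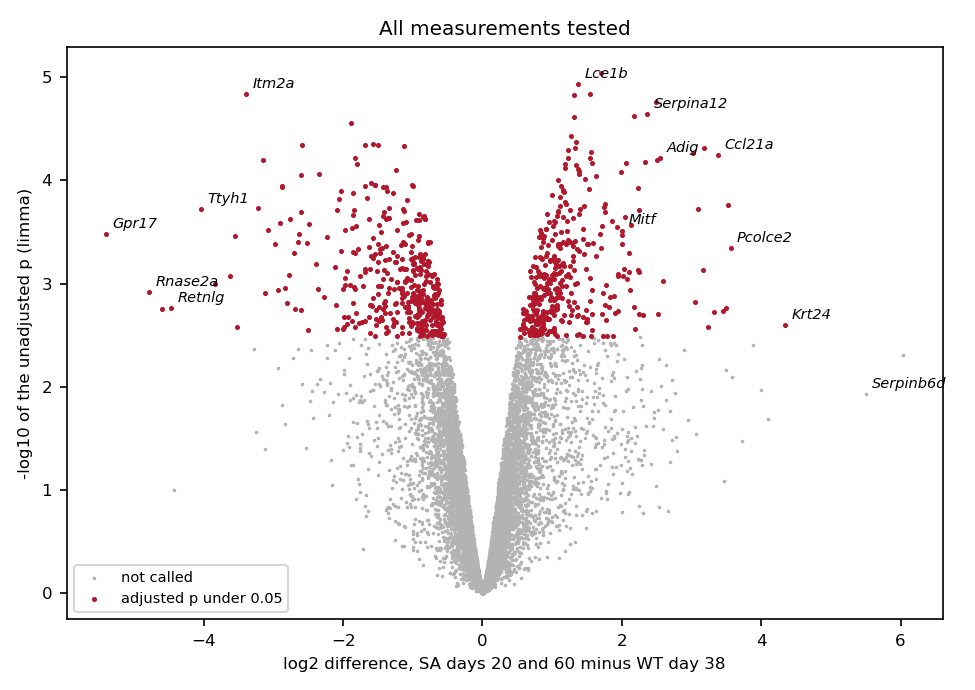
Log2 difference of the mean of SA days 20 and 60 minus WT day 38 (horizontal axis) against the -log10 of limma's unadjusted p (vertical axis) for 11661 measurements, with the 764 called at an adjusted p under 0.05 in red. Serpinb6d lies far to the right without being called, with a difference of 5.50.

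Taken day by day against the same 2 WT arrays, SA at day 20 gave 513 calls (4.4%), 253 higher (2.17%) and 260 lower (2.23%), and SA at day 60 gave 644 (5.52%), 344 higher (2.95%) and 300 lower (2.57%). Both counts share the WT arrays. With no filter on dim probes limma called 171 for day 20 and 0 for day 60, with 3456 of the day 60 differences at an unadjusted p under 0.05. A joint F test of the 3 groups called 604 (5.18%). Between the SA days themselves, day 60 minus day 20, limma called 0, with 2741 at an unadjusted p under 0.05 and a smallest adjusted p of 0.0756.

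The largest falls in SA included genes known from glia and nerve, which were grouped here with their values known. Gpr17, a receptor of oligodendrocyte precursors, read 6.82 and 9.63 in SA at day 20 and 7.51 and 8.14 at day 60, against 13.60 and 13.25 in WT. Its difference was -5.40 (SE 0.78, adjusted p = 0.0265), and the gap of 3.62 was the largest among the members. Replicate 1 of SA at day 20, at 6.82, lay below the filter at 7.24. Gfra3, the co-receptor for the nerve growth factor artemin, read 7.36 and 8.86 in SA at day 20 and 8.07 and 10.93 at day 60, against 13.38 and 13.43 in WT, and fell by 4.6 (SE 0.90, adjusted p = 0.0398), with 3 of 3 probes outside the range. Ttyh1, a membrane protein of neural cells, read 8.31 and 8.74 in SA at day 20 and 9.24 and 10.21 at day 60, against 13.11 and 13.23 in WT, and fell by 4.04 (SE 0.53, adjusted p = 0.0247). In all 3 genes both WT arrays lay close together and above the SA arrays of days 20 and 60. Also among the 12 largest falls were Gpr37l1, a receptor of glial cells (-3.63), Rasgef1c, which has a domain that activates Ras proteins (-3.84), Slc35f1, a putative transporter (-3.55), Luzp2 (-3.22), the membrane protein Itm2a (-3.39) and the matrix protein Matn4 (-3.15).

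The list of Schwann cell and myelin genes, of which 10 of 16 could be tested, had 5 members below the range (50%, against 18.1% of all measurements) and 1 above it. Of the 10, 2 fell (20%, against 3.46%) and 0 rose, and the median difference was -1.11, against 0.01 over all measurements. Cnp, a myelin enzyme, read 10.63 and 10.22 in SA at day 20 and 10.36 and 11.07 at day 60, against 13.01 and 12.67 in WT, and fell by 2.27 (SE 0.42, adjusted p = 0.0362). Mal, a membrane protein of myelin, read 8.83 and 7.86 in SA at day 20 and 7.13 and 8.45 at day 60, against 10.49 and 10.65 in WT, and fell by 2.50 (SE 0.54, adjusted p = 0.0476). The 4 SA arrays of days 20 and 60 lay at least 1.60 below the nearer WT array for both, while replicate 1 of SA at day 38 came nearer, at 11.91 for Cnp and 9.79 for Mal. Cdh19, a cadherin of Schwann cell precursors, had a difference of -3.28 that was not called (adjusted p = 0.0554), and Pmp22, a protein of peripheral myelin, one of -1.16 (adjusted p = 0.0583). Ncmap, another protein of peripheral myelin, stood on the other side at 1.08 (adjusted p = 0.0734). In whole tumours, fewer cells of a type and less RNA for each cell cannot be told apart.

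Replicate 1 of SA at day 38 lay between the other SA arrays and WT for Gpr17, Gfra3 and Cnp, and replicate 2 did so for Gpr17. Gpr17 read 12.32 and 10.89 there, Gfra3 12.52 and 10.63, and Cnp 11.91 and 10.46. The mean of the Schwann list, centred on the 8 arrays, was -0.48 and -0.40 in SA at day 20, 0.46 and -0.41 at day 38 and -0.44 and -0.07 at day 60, against 0.74 and 0.60 in WT. At day 38 replicate 1 of SA thus came near WT and replicate 2 did not, so the level of this list in SA at the matched day differed between the arrays.

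**Figure D2:**
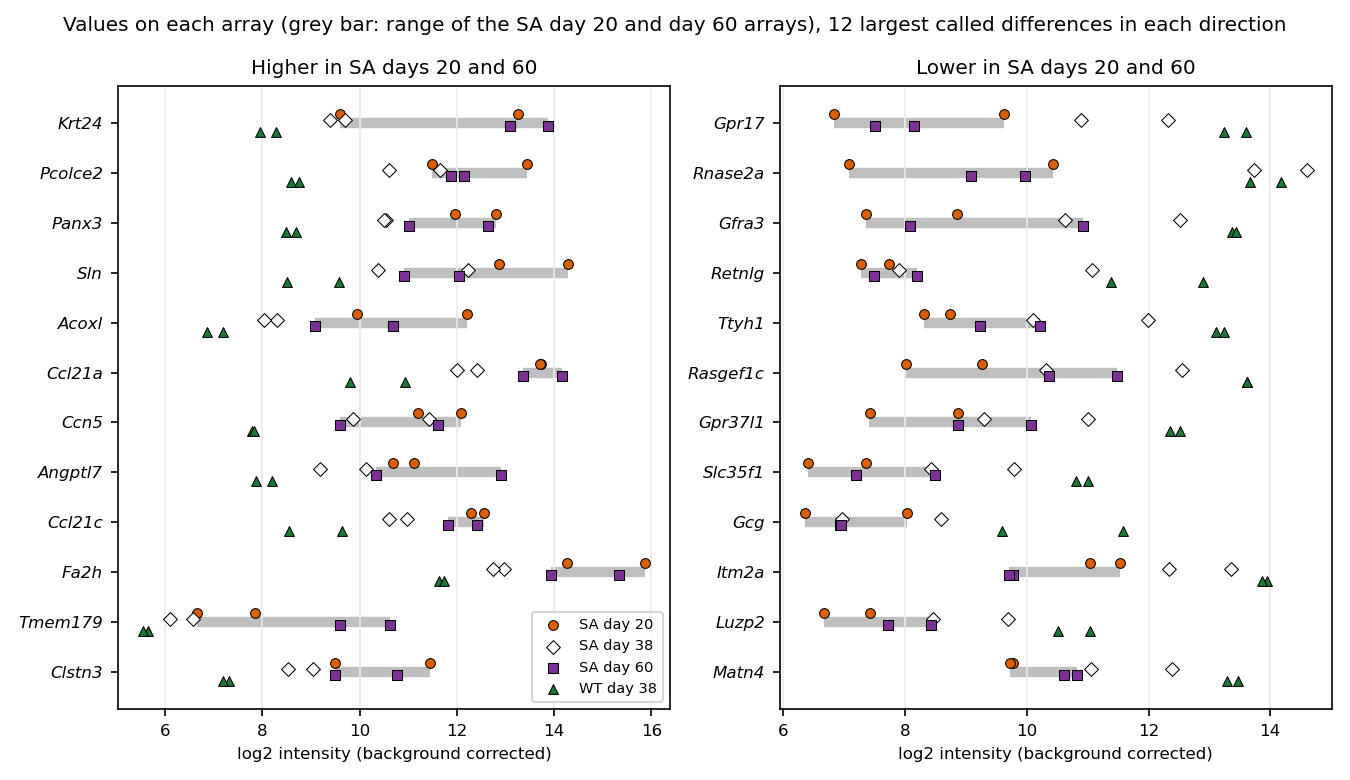
Log2 intensity on each array for the 12 called genes with the largest differences in each direction, with SA day 20, day 38 and day 60 and WT day 38 as separate markers and the range of the 4 SA arrays of days 20 and 60 as a grey bar. Both WT arrays lie left of the bar for the 12 genes that rose in SA and right of it for the 12 that fell, and the SA day 38 arrays of Gpr17, at 12.32 and 10.89, lie between the bar and WT.

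Of 14 tested genes of the neural crest and of undifferentiated melanoma, 2 fell (14.3%, against 3.46%), 0 rose, 2 lay below the range (14.3%, against 18.1%) and 1 above it. Ngfr, the low-affinity nerve growth factor receptor that marks neural crest cells, read 9.65 and 10.70 in SA at day 20 and 11.0 and 11.28 at day 60, against 12.50 and 12.55 in WT, and fell by 1.87 (SE 0.29, adjusted p = 0.0286). Zeb1, a transcription factor of the mesenchymal state, read 12.22 and 12.27 in SA at day 20 and 12.40 and 12.64 at day 60, against 13.81 and 14.02 in WT, and fell by 1.53 (SE 0.30, adjusted p = 0.0399). For both genes the WT arrays lay at least 1.17 above the nearest of these 4 SA arrays. The SA day 38 arrays read 11.87 and 11.58 for Ngfr and 13.52 and 12.39 for Zeb1, so that replicate 1 came nearer to WT. Twist1, another transcription factor of the mesenchymal state, lay 0.71 higher in SA (adjusted p = 0.0967).

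Pigment cell genes mostly lay higher in SA, with a higher mean in 16 of 18. Of these, 3 rose (16.7%, against 3.1%) and 0 fell, while 4 lay above the range (22.2%, against 16%) and 2 below it. Mitf, the master transcription factor of melanocytes, read 8.14 and 9.04 in SA at day 20 and 9.94 and 10.48 at day 60, against 7.32 and 7.47 in WT, and rose by 2.01 (SE 0.29, adjusted p = 0.0259). Rab27a, which ties pigment granules to the cell's transport motors, read 11.76 and 12.35 in SA at day 20 and 12.33 and 12.89 at day 60, against 10.55 and 10.59 in WT, and rose by 1.76 (SE 0.24, adjusted p = 0.0247). Gpnmb, a glycoprotein of melanosomes that macrophages also make, read 14.65 and 15.59 in SA at day 20 and 16.05 and 15.89 at day 60, against 13.29 and 13.59 in WT, and rose by 2.11 (SE 0.36, adjusted p = 0.0312), with 4 of 4 probes outside the range. SA at day 60 stood highest for all 3 genes, and the WT level of Mitf lay close to the filter at 7.24. The SA day 38 arrays read 7.60 and 7.92 for Mitf, 11.64 and 11.35 for Rab27a and 13.3 and 14.3 for Gpnmb. These values lay below every SA array of days 20 and 60, and for Mitf and Gpnmb they came near WT. The median difference over the list was 0.88 for SA at day 20 and 2.57 for SA at day 60, and the centred list mean was -1.08 and 0.79 at day 20 and 1.08 and 1.47 at day 60, against -0.92 and -1.0 in WT. Mlph, which links Rab27a to the motor protein Myo5a, lay on the other side with SA lower by 0.66 (adjusted p = 0.175).

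Collagen and matrix genes mostly lay lower in SA, with a lower mean in 21 of 26. Of these, 15 lay below the range (57.7%, against 18.1%) and 0 above it, 5 fell (19.2%, against 3.46%) and 0 rose, and the median difference was -0.78. Col4a1 and Col4a2 encode chains of basement membrane collagen IV and lie head to head on chromosome 8, with their first transcribed bases overlapping. Their start sites in RefSeq, build GRCm38.p6, lie 21 bases apart on opposite strands, and the windows shown, chr8:11312777-11313076 on the minus strand for Col4a1 and chr8:11312555-11312854 on the plus strand for Col4a2, run from 250 bases before each start to 50 after it. They are shown because both genes fell together; capitals mark the 78 bases that both windows hold, read from opposite strands.
Col4a1: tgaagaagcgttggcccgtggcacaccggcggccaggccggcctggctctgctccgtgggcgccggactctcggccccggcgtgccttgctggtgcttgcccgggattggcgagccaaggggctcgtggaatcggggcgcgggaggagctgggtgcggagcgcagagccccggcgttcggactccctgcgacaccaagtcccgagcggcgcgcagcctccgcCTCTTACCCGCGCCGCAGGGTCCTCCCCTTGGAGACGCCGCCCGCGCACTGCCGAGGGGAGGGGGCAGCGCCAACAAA
Col4a2: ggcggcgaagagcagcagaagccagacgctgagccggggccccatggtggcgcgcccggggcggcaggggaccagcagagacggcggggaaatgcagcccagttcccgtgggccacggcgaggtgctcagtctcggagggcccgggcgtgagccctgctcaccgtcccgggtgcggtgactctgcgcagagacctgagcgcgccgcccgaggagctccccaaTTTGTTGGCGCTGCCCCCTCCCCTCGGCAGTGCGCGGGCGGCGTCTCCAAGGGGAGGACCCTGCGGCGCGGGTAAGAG

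Col4a1 read 13.92 and 14.69 in SA at day 20 and 14.69 and 14.97 at day 60, against 16.13 and 16.02 in WT, and fell by 1.5 (SE 0.24, adjusted p = 0.0293). Col4a2 read 12.94 and 14.13 in SA at day 20 and 14.48 and 14.77 at day 60, against 15.76 and 15.85 in WT, and fell by 1.73 (SE 0.36, adjusted p = 0.0438). Both genes were lowest in replicate 1 of SA at day 20, and the WT level of Col4a1 lay at the top of the array's scale, which ends at 16.13. Col15a1, a collagen of the basement membrane zone, fell by 1.82 (SE 0.39, adjusted p = 0.046), and Lum, a proteoglycan that binds collagen fibres, by 1.5 (adjusted p = 0.0338). Col5a1, a chain of the fibre-forming collagen V, fell by 0.85 (adjusted p = 0.0495), and its partner Col5a2 had a difference of -1.86 that was not called (adjusted p = 0.0512). The fibroblast protease Fap, which read 9.76 and 9.95 in SA at day 20 and 9.26 and 8.84 at day 60, against 10.95 and 11.12 in WT, fell by 1.58 (SE 0.16, adjusted p = 0.0236). Fap was the 1 call among 18 tested fibroblast markers (5.56%, against 3.46% for falls). Of the 18, 2 lay above and 2 below the range (11.1% each, against 16% and 18.1%), and the list median was -0.01. The SA day 38 arrays read 15.73 and 15.36 for Col4a1, above every SA array of the other days.

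Of 19 matrix metalloproteinases and inhibitors, 2 lay below the range (10.5%, against 18.1% of all measurements) and 0 above it (against 16%). Mmp13, a collagenase, read 12.32 and 12.18 in SA at day 20 and 11.05 and 11.54 at day 60, against 13.05 and 12.98 in WT, and fell by 1.24 (SE 0.20, adjusted p = 0.0296). Of its 3 probes, 1 did not lie outside the range. Of 33 tested factors secreted by senescent cells, Mmp13 was the 1 that was called (3.03%, against 3.46% for falls). In that list 4 lay above the range and 4 below it (12.1% each, against 16% and 18.1%), and the median was -0.16. The neutrophil attractant Cxcl1 in that list lay lower in SA by 1.74 (adjusted p = 0.0532). Of 24 senescence regulators and p53 targets, 1 was called (4.17%, against 3.46% for falls) and 2 lay on each side of the range (8.33% each, against 16% and 18.1%). Lmnb1, a nuclear lamina protein whose loss is a mark of senescence, read 10.16 and 10.29 in SA at day 20 and 9.38 and 9.88 at day 60, against 11.09 and 10.82 in WT, and fell by 1.03 (SE 0.18, adjusted p = 0.0323). The SA day 38 arrays read 10.99 and 11.03 for Lmnb1, at the WT level. The cell cycle inhibitor Cdkn1a lay 0.37 higher in SA (adjusted p = 0.16) and Cdkn2c 0.63 lower (adjusted p = 0.0903).

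Of 27 tested genes of DNA replication, 15 lay below the range (55.6%, against 18.1%), 0 lay above it and limma called 0, with 8 lower and 0 higher at an unadjusted p under 0.05, and the median difference was -0.38. Cdc6, which loads the replicative helicase, read 8.47 and 8.61 in SA at day 20 and 8.19 and 8.45 at day 60, against 8.95 and 9.0 in WT, a difference of -0.54 (adjusted p = 0.12). Rrm1, the large subunit of ribonucleotide reductase, had a difference of -0.55 (adjusted p = 0.135). Of 26 genes of mitosis and the cell cycle, 7 lay below the range (26.9%, against 18.1%) and 0 above it. The 1 called (3.85%, against 3.46% for falls) was Ccne2, a cyclin of the entry into S phase, which fell by 0.82 (SE 0.18, adjusted p = 0.0476). In that list 22 genes had a lower mean in SA. At an unadjusted p under 0.05 in limma, 15 were lower and 0 higher, against 1636 lower of all 11661 measurements. The median over that list was -0.74 for both SA days, -0.40 for SA at day 20 and -1.11 for SA at day 60. Its centred mean was 0.24 and 0.51 in SA at day 38, against 0.23 and 0.28 in WT. The SA day 38 arrays had the highest centred means of the replication genes, at 0.15 and 0.59, against 0.11 and 0.08 in WT, with -0.28 and -0.04 in SA at day 20 and -0.42 and -0.18 at day 60.

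**Figure D3:**
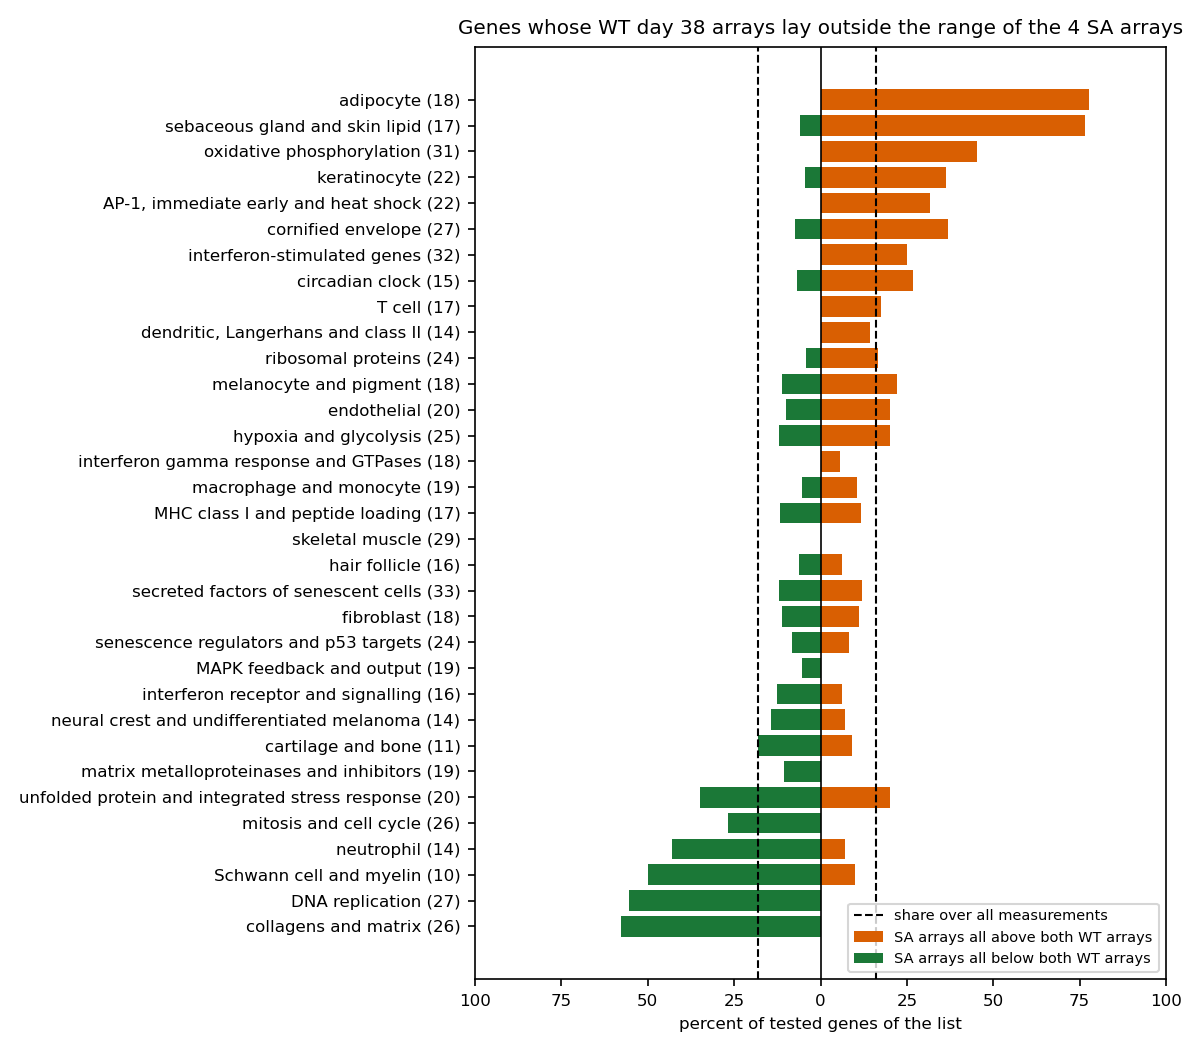
Percent of the tested genes of each list (number in brackets, lists of 10 or more) for which all 4 SA arrays lay above both WT arrays (orange, to the right) or below both (green, to the left), with the shares over all measurements, 16% and 18.1%, as dashed lines. Adipocyte genes reach 77.8% to the right, and collagen and matrix genes 57.7% to the left.

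Genes of fat cells and skin lipids mostly lay higher in SA. Of 18 adipocyte genes, 14 lay above the range (77.8%, against 16%) and 0 below it, and 5 rose (27.8%, against 3.1%), with a median difference of 1.20. Pparg, the transcription factor that directs fat cell and sebocyte formation, read 11.63 and 11.35 in SA at day 20 and 10.47 and 11.29 at day 60, against 8.87 and 9.03 in WT, and rose by 2.24 (SE 0.27, adjusted p = 0.0236). Adig, a small membrane protein of fat cells, read 11.17 and 10.78 in SA at day 20 and 10.41 and 10.79 at day 60, against 8.11 and 8.37 in WT, and rose by 2.55 (SE 0.28, adjusted p = 0.0236). Every SA array lay at least 1.44 above both WT arrays for both genes. Plin4, a coat protein of lipid droplets, rose by 2.25 (SE 0.38, adjusted p = 0.0309), and Dgat2 and Scd1, enzymes of triglyceride and fatty acid synthesis, by 0.95 and 1.38 (adjusted p = 0.0476 and 0.0247). The hormone gene Lep, which fat cells secrete, did not follow, at 11.23 and 10.02 in SA at day 20 and 8.79 and 9.0 at day 60, against 9.14 and 10.38 in WT. Lep was named after its values were seen. The centred list mean was 0.80 and -0.02 at day 20, 0.92 and 1.21 at day 38 and -0.27 and -0.26 at day 60 in SA, against -1.42 and -0.95 in WT, so that all 6 SA arrays stood above WT.

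Of 17 genes of the sebaceous gland and of skin lipid synthesis, 13 lay above the range (76.5%, against 16%) and 1 below it. The 3 that rose (17.6%, against 3.1%) were Pparg, Scd1 and Mgst1, a glutathione transferase of membranes (1.08, adjusted p = 0.0384). Pparg and Scd1 are in the adipocyte list too. Elovl3, a fatty acid elongase of sebocytes, read 8.94 and 11.42 in SA at day 20 and 9.0 and 10.04 at day 60, against 7.54 and 7.82 in WT, and its difference of 2.17 was not called (adjusted p = 0.0982). Fa2h, which makes hydroxylated fatty acids of skin and myelin lipids and is in neither list, read 14.26 and 15.87 in SA at day 20 and 13.93 and 15.34 at day 60, against 11.64 and 11.72 in WT, and rose by 3.17 (SE 0.53, adjusted p = 0.0308). Within SA days 20 and 60 replicate 2 was the higher for Elovl3 and Fa2h, as it was for Acoxl, related to the acyl-CoA oxidases, and Clstn3, a calsyntenin, which rose by 3.46 and 3.05. A second Clstn3 probe lay inside the range. The WT arrays lay below the filter at 7.24 for Acoxl, at 7.18 and 6.86, and near it for Clstn3, at 7.31 and 7.19. The centred mean of the sebaceous list was 0.28 and 0.68 in SA at day 20 and -0.16 and 0.63 at day 60, against -0.72 and -0.66 in WT.

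The outer skin layers were split. Of 27 genes of the cornified envelope, the protein shell of the skin surface, 10 lay above the range (37%, against 16%), 2 below it, and 6 rose (22.2%, against 3.1%): Lce1b, Lce1c, Lce1d, Lce1l, Lce1m and Serpina12. The Lce1 genes are closely related neighbours on chromosome 3, and their probes may share signal. The windows around the start sites of 3 of them in RefSeq, build GRCm38.p6, are shown because these genes rose together. They lie at chr3:92656877-92657176 on the minus strand for Lce1b, chr3:92678997-92679296 on the plus strand for Lce1c and chr3:92851237-92851536 on the minus strand for Lce1l. In an alignment of the 3 windows of 300 bases, 79 bases were identical in all 3. Capitals mark the longest run that all 3 share in it, ATAAAA, which was found by that alignment and begins 29, 29 and 28 bases before the start. On either strand, 18.5% of 32851 such windows of 300 bases hold it.
Lce1b: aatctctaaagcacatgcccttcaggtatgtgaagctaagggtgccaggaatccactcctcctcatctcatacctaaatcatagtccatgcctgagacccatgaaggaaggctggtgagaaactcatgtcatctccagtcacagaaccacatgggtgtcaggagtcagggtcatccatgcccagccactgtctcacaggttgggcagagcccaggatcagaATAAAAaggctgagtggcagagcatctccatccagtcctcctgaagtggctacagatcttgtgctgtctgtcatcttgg
Lce1c: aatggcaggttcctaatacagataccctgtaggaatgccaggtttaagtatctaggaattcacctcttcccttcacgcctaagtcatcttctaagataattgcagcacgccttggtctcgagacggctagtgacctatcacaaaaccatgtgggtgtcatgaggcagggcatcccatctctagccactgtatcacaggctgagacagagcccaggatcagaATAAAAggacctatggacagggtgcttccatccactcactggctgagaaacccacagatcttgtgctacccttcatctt
Lce1l: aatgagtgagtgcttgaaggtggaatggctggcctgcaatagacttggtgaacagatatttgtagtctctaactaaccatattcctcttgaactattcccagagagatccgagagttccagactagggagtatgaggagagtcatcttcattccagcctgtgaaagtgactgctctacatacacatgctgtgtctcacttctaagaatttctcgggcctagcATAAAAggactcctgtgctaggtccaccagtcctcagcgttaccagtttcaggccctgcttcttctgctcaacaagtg

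Lce1l read 13.31 and 12.67 in SA at day 20 and 12.35 and 12.10 at day 60, against 10.37 and 10.50 in WT, and rose by 2.17 (SE 0.20, adjusted p = 0.0236). Lce1b read 15.70 and 15.60 in SA at day 20 and 14.92 and 15.01 at day 60, against 13.94 and 13.93 in WT, and rose by 1.37 (SE 0.12, adjusted p = 0.0236). Lce1c rose by 1.33 (SE 0.14, adjusted p = 0.0236). For the 3 genes the SA day 20 arrays were the higher of the SA days, and the SA day 38 arrays came close to WT, with 10.72 and 10.61 for Lce1l and 14.10 and 14.11 for Lce1b. Serpina12, a secreted serine protease inhibitor, read 14.19 and 13.53 in SA at day 20 and 12.73 and 12.50 at day 60, against 10.70 and 11.04 in WT, and rose by 2.37 (SE 0.22, adjusted p = 0.0236). Sprr2d and Sprr1b, envelope proteins that injured skin makes in large amounts, lay on the other side with SA lower by 2.44 (adjusted p = 0.0825) and 1.77 (adjusted p = 0.0927).

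Of 22 keratinocyte genes, 8 lay above the range (36.4%, against 16%) and 1 below it, 3 rose (13.6%, against 3.1%) and 0 fell. Trp63, the transcription factor of basal keratinocytes, rose by 0.88 (SE 0.16, adjusted p = 0.0344), Pkp1, a protein of desmosomes, by 0.73 (adjusted p = 0.0398) and Krt15, a basal keratin, by 1.73 (SE 0.38, adjusted p = 0.0496). Krt24, a keratin outside that list, had the largest rise among called genes. It read 9.60 and 13.25 in SA at day 20 and 13.88 and 13.09 at day 60, against 8.28 and 7.94 in WT, and rose by 4.34 (SE 0.91, adjusted p = 0.0448), with replicate 1 of day 20 far below the other 3 of these SA arrays and near the SA day 38 arrays, at 9.70 and 9.39. Serpinb6d, from a family of closely related protease inhibitors, had a larger difference of 5.50 that was not called (adjusted p = 0.0856), at 9.15 and 15.10 in SA at day 20 and 10.86 and 13.47 at day 60, against 6.66 and 6.62 in WT. Its SA arrays of these days spread over more than the gap to WT.

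**Figure D4:**
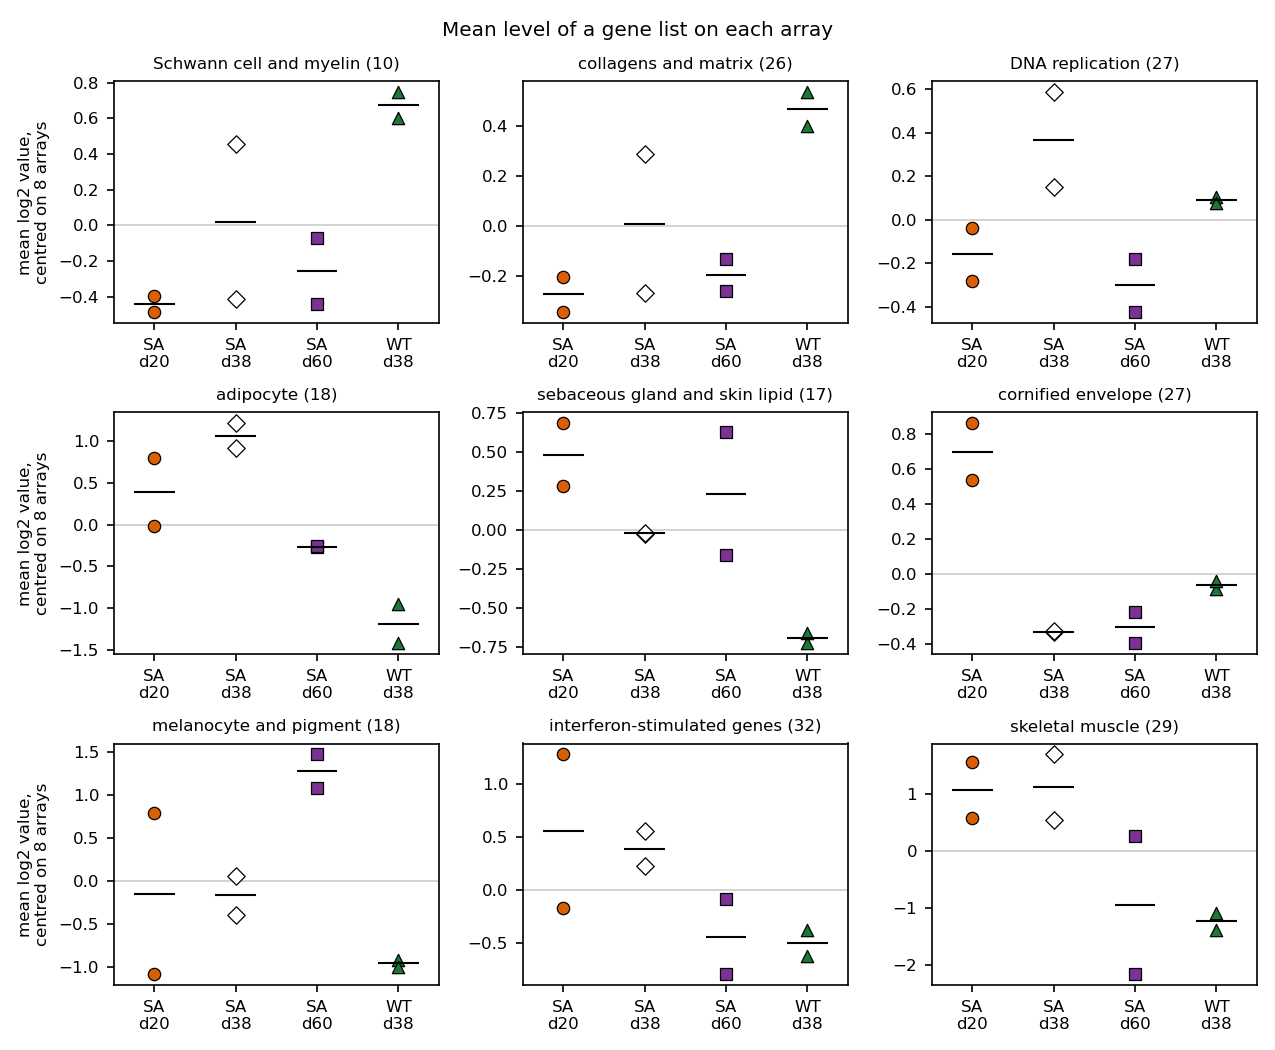
Mean log2 value of the tested genes of 9 lists on each array, each gene centred on its mean over the 8 arrays, for SA days 20, 38 and 60 and WT day 38, with a bar at each group's mean. The WT arrays are lowest for adipocyte and sebaceous genes, at -1.42 and -0.95 and at -0.72 and -0.66, and highest for collagen and Schwann genes, while SA day 20 arrays differ from each other for pigment and interferon-stimulated genes.

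Other large rises included secreted and membrane proteins. Pcolce2, which assists collagen processing, read 13.44 and 11.49 in SA at day 20 and 12.14 and 11.88 at day 60, against 8.76 and 8.59 in WT, and rose by 3.56 (SE 0.55, adjusted p = 0.0274). Its gap of 2.74 was the largest among the members with SA higher, and 2 of 2 probes lay outside the range. Panx3, a channel protein of skin and cartilage cells, rose by 3.52 (SE 0.46, adjusted p = 0.0247). Ccn5, a matrix-associated signalling protein, rose by 3.32 (SE 0.66, adjusted p = 0.0401). Angptl7, a secreted angiopoietin-like protein, rose by 3.24 (SE 0.68, adjusted p = 0.046). Tmem179 rose by 3.09 (SE 0.41, adjusted p = 0.0247), but its WT values, 5.64 and 5.54, lay below the filter at 7.24. Replicate 1 of SA at day 20, at 6.66, and the SA day 38 arrays, at 6.09 and 6.57, also lay below it. The mean of Tmem179 passed the filter through the remaining SA arrays, at 7.84, 10.61 and 9.60.

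Ccl21a and Ccl21c encode a chemokine that draws T cells and dendritic cells along lymphatic vessels. Ccl21a read 13.74 and 13.70 in SA at day 20 and 13.37 and 14.16 at day 60, against 10.93 and 9.80 in WT, and rose by 3.38 (SE 0.37, adjusted p = 0.0236). Ccl21c rose by 3.18 (SE 0.33, adjusted p = 0.0236). These 4 SA arrays lay close together and at least 2.44 above WT for Ccl21a, and the SA day 38 arrays lay between them and WT, at 12.42 and 11.99. The Ccl21 genes are near-identical copies, so the values cannot be assigned to single copies. Of 17 T cell genes 3 lay above the range (17.6%, against 16%), of 14 dendritic cell and class II genes 2 (14.3%), and limma called 0 of either list, with 3 and 2 higher and 0 lower at an unadjusted p under 0.05. The lymphatic vessel marker Lyve1 in the endothelial list read 12.43 and 11.05 in SA at day 20 and 11.25 and 10.81 at day 60, against 11.51 and 11.45 in WT, and was named after its values were seen. Of the 20 endothelial genes, 4 lay above the range (20%, against 16%) and 2 below it (10%, against 18.1%). Of the 20, 0 fell and 2 rose (10%, against 3.1%): Mmrn2 by 0.77 (adjusted p = 0.0316) and Tal1 by 0.73 (adjusted p = 0.0474). The transcription factor Ets1 lay on the other side at -1.49 (adjusted p = 0.053).

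Sln, an inhibitor of the calcium pump of muscle, read 14.28 and 12.86 in SA at day 20 and 12.05 and 10.92 at day 60, against 9.57 and 8.51 in WT, and rose by 3.49 (SE 0.68, adjusted p = 0.0394). Beside it, the centred mean of 29 skeletal muscle genes was 1.56 and 0.57 in SA at day 20 and 0.26 and -2.16 at day 60, against -1.09 and -1.38 in WT. All 29 had a higher mean in SA, and the median difference was 1.25 over both SA days, 2.40 for day 20 and 0.01 for day 60. Of those 29, 0 lay outside the range in either direction and limma called 0, with 4 higher and 0 lower at an unadjusted p under 0.05, and the smallest p belonged to the sarcomere protein Ttn (2.52, adjusted p = 0.102). The part of muscle RNA in the Sln result was not tested.

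Of 14 neutrophil genes, 6 lay below the range (42.9%, against 18.1%), 1 above it (7.14%, against 16%), and 2 fell (14.3%, against 3.46%). Retnlg, a resistin-like protein of neutrophils, read 7.27 and 7.73 in SA at day 20 and 8.20 and 7.50 at day 60, against 11.38 and 12.90 in WT, and fell by 4.47 (SE 0.87, adjusted p = 0.0395). Stfa1, a cysteine protease inhibitor of that lineage, fell by 1.16 (adjusted p = 0.0354). S100a9, a calcium-binding protein abundant in neutrophils, had a difference of -1.53 (adjusted p = 0.116) and Il1r2, the decoy receptor for interleukin 1, one of 1.87 on the other side (adjusted p = 0.069). Rnase2a, an eosinophil-associated ribonuclease with close copies in the genome, read 10.44 and 7.07 in SA at day 20 and 9.08 and 9.96 at day 60, against 14.17 and 13.67 in WT, and fell by 4.78 (SE 0.88, adjusted p = 0.0354). The SA day 38 arrays read 14.60 and 13.74 for Rnase2a, at the WT level. Gcg, the glucagon precursor, read 6.35 and 8.03 in SA at day 20 and 6.93 and 6.95 at day 60, against 9.60 and 11.58 in WT, and fell by 3.52 (SE 0.74, adjusted p = 0.046), although its SA values lay near or below the filter. Of 19 macrophage and monocyte genes limma called 0, with 1 higher and 2 lower at an unadjusted p under 0.05. In that list 2 lay above the range (10.5%, against 16%) and 1 below it (5.26%, against 18.1%).

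Limma called 0 genes of the interferon pathway. Ifnar1 was below the filter, at 5.08 and 4.87 in SA at day 20 and 5.03 and 5.72 at day 60, against 5.44 and 4.50 in WT, and a probe for its RNA does not test an allele that alters the protein. Ifnar2, the partner chain, had a difference of -0.34 (SE 0.18, adjusted p = 0.271). Of 16 genes of the receptor and its signalling, 1 lay above the range (6.25%, against 16%) and 2 below it (12.5%, against 18.1%). Jak2, a kinase of cytokine receptors, was among the latter at -0.29 (adjusted p = 0.316). Of 32 interferon-stimulated genes, 8 lay above the range (25%, against 16%) and 0 below it, and 28 had a higher mean in SA. At an unadjusted p under 0.05 there were 7 higher and 0 lower in that list, and 2 higher and 0 lower in the list of the receptor and its signalling. Irf7, the transcription factor that amplifies interferon production, read 12.56 and 10.12 in SA at day 20 and 9.15 and 10.23 at day 60, against 8.83 and 8.34 in WT, a difference of 1.93 (SE 0.69, adjusted p = 0.133). Lgals3bp, a secreted glycoprotein, read 14.07 and 13.32 in SA at day 20 and 13.33 and 13.23 at day 60, against 12.80 and 12.44 in WT, a difference of 0.87 (adjusted p = 0.0862). The list median was 1.06 for SA at day 20 and 0.04 for SA at day 60, and replicate 1 of day 20 was far above the rest, with a centred mean of 1.28, against -0.17 for replicate 2, -0.80 and -0.09 at day 60 and -0.38 and -0.63 in WT. Of 18 interferon gamma response genes 1 lay above the range (5.56%), with 0 at an unadjusted p under 0.05. Of 17 genes of MHC class I and peptide loading 2 lay on each side (11.8% each), with 2 higher and 2 lower at an unadjusted p under 0.05.

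Of 31 genes of oxidative phosphorylation and the citrate cycle, 14 lay above the range (45.2%, against 16%) and 0 below it, with a median of 0.21. Ogdh, an enzyme of that cycle, read 12.44 and 12.79 in SA at day 20 and 12.87 and 12.85 at day 60, against 11.95 and 11.79 in WT, and rose by 0.87 (SE 0.16, adjusted p = 0.0341). Of 22 immediate early and heat shock genes 7 lay above the range (31.8%, against 16%) and 0 below it. The 1 called (4.55%, against 3.1% for rises) was Junb, a part of the transcription factor AP-1, which rose by 0.84 (SE 0.18, adjusted p = 0.0417). Of 20 genes of the unfolded protein and integrated stress response, 4 lay above the range (20%, against 16%) and 7 below it (35%, against 18.1%). Ppp1r15a, which ends the integrated stress response, rose by 0.74 (SE 0.16, adjusted p = 0.0491), and the endoplasmic reticulum chaperone Hsp90b1 lay 0.57 lower (adjusted p = 0.122). The clock gene Rora rose by 1.04 (SE 0.17, adjusted p = 0.0293), the 1 call among 15 genes of the circadian clock (6.67%, against 3.1% for rises). Of the 15, 4 lay above the range (26.7%, against 16%) and 1 below it (6.67%, against 18.1%). Nr1d1, another clock gene, read 8.19 and 8.40 in SA at day 38, below the 10.46 to 11.15 of the other SA arrays and the 10.05 and 9.62 of WT. The hour at which tumours were taken was not given in the sources used here.

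Cytl1, a secreted protein of cartilage, read 7.94 and 8.76 in SA at day 20 and 9.26 and 9.06 at day 60. Both WT arrays, at 6.21 and 6.64, lay below the filter at 7.24. The gene rose by 2.33 (SE 0.26, adjusted p = 0.0236). It was the 1 rise among 11 cartilage and bone genes (9.09%, against 3.1% of all measurements), and Matn4 the 1 fall (9.09%, against 3.46%). Of the 11, 1 lay above the range (9.09%, against 16%) and 2 below it (18.2%, against 18.1%), near or under the shares over all measurements. The other tested genes of that list were not called, among them Col10a1 at -1.65 (adjusted p = 0.0648).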

How the data were processed

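RNA from whole mouse melanomas was measured on 8 Illumina arrays. The deposited values are intensities on a linear scale, normalized between arrays by the authors as read from their equal quartiles; the submitters' processing notes list GenomeStudio 1.8. A further table, with 16 columns that no label ties to a sample, was not used. The number of arrays limits the precision.

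Background was removed with normexp in limma (offset 16), and the values were put on the log2 scale. Probes with a mean above the 40th percentile (7.24) were kept, and the brightest stood for its gene; 23978 probes had 1 symbol in the platform annotation, 0 several and 1719 none. limma 3.58.1 in R 4.3.3 fitted 4 group means to 8 arrays (4 residual degrees of freedom and 2.49 from the prior), adjusted by Benjamini-Hochberg over 11661 measurements, and was tested on simulated data. Log2 differences of dim probes understate changes. Members and gene lists were chosen with earlier results of these data known. Genes were named from a set chosen by rule. It held the 12 largest called differences outside the range and the 3 largest gaps in each direction. From each list it took up to 4 members with the largest gaps, or the 2 with the smallest p. The receptor chains and the sex-linked genes were added. Not every gene of that set was named in the text, and called members of a list outside this rule were named after their values were seen. Alternatives covered background, filter, probe rule, arrays fitted, replicate block, array weights, variance prior and each array left out. 1 item of the mouse model is not reported here.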

Additional observations from a re-analysis of the deposited data

Results flagged for a closer look

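Of the gene lists, 3 had both SA day 20 arrays on 1 side of the WT arrays and both SA day 60 arrays on the other, by the list's centred mean. The differences between the SA days were not tested for these lists. Relative to WT the cornified envelope genes stood at 0.76 in SA at day 20 and -0.24 at day 60, so that day 60 minus day 20 was -1.0. Neural crest and undifferentiated melanoma genes stood at -0.68 at day 20 and 0.22 at day 60, a day 60 minus day 20 value of 0.90. Ribosomal protein genes stood at 0.03 at day 20 and -0.08 at day 60, a value of -0.11.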

How the results depend on the processing

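Leaving out 1 array at a time gave 0 to 608 genes called higher and 0 to 640 called lower for the mean of the SA days, 0 to 559 and 0 to 561 for day 20, and 0 to 640 and 0 to 587 for day 60. In these fits the lone array of a group was assumed to vary like the other groups. The range rule gave 1860 to 2753 measurements with SA higher and 2107 to 2856 with SA lower. Without either WT array limma called 0 in each comparison, with 1642 to 1887 at an unadjusted p under 0.05. For day 20 the count was 59 without replicate 1 and 1120 without replicate 2 of that group, and 231 without either SA day 60 array; for day 60 it was 1227 without either SA day 20 array, 0 and 1 without the SA day 60 arrays, and 195 without either SA day 38 array.

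Without a filter on dim probes, which tests more genes, 112 were called higher and 110 lower for the mean of the SA days, 92 and 79 for day 20, and 0 and 0 for day 60. With array weights the counts were 1018 higher and 1054 lower, and for day 60 953 and 910. With all 6 SA arrays they were 121 and 125, and 1082 measurements lay outside the range with SA higher. With only the 6 arrays compared, day 60 gave 90 and 105. Day 60 gave 451 lower without background correction and 499 lower with every probe on its own. Lyz1 at 0.0317 and Sdc1 at -0.00599 changed sign with the mean of a gene's probes, Ciart at -0.0391, Clec4d at -0.282 and Eif2s3x at 0.188 with all 6 SA arrays, and Kdm5c ran from -0.253 to 0.00605 with 1 array left out. The cause of these changes was not tested. Of 54 named genes that were called, 28 passed without the filter, 23 with all 6 SA arrays and 54 with array weights.

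With the replicate number as a block, 115 were called higher and 85 lower for the mean of the SA days, and 0 and 0 for either day alone, with 2741 and 2963 at an unadjusted p under 0.05 in limma. The labels do not say that replicate numbers pair the tumours. Correlations of the replicate differences ran from -0.196 to 0.107 across groups, but with 1 difference in each group they cannot settle whether replicates were paired. With the block, 23 of the 54 named genes passed.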

Other observations

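Lists that the comparison above does not turn on had 0 calls by limma. Of 25 hypoxia and glycolysis genes, 5 lay above the SA range (20%, against 16% of all measurements) and 3 below it (12%, against 18.1%). In that list Hk2, a hexokinase, had a difference of 1.15 (adjusted p = 0.0562). Of 19 genes of MAPK feedback and output, 0 lay above the range and 1 below it (5.26%), the transcription factor Etv1 at -0.98 (adjusted p = 0.258). Of 16 hair follicle genes, 1 lay on each side (6.25% each), and the median was 0.24 for SA at day 20 and -1.77 for SA at day 60. Of 24 ribosomal protein genes, 4 lay above the range (16.7%) and 1 below it (4.17%). At an unadjusted p under 0.05 these 4 lists had 4 higher and 2 lower, 0 and 0, 0 higher and 4 lower, and 0 and 0.

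Fewer than 10 genes were tested of B and plasma cell, mast cell, cytotoxic lymphocyte and red blood cell markers. Of the 6 B and plasma cell genes tested, 1 lay above the range (16.7%, against 16%), Sdc1 at 0.46 (adjusted p = 0.164), and 2 below it (33.3%, against 18.1%). A further Sdc1 probe lay inside the range, and another lay below it with a difference of -0.49. The B cell genes Fcrla and Cd79b lay below the range with differences of -1.51 and -1.39 (adjusted p = 0.0685 and 0.0967). The mast cell receptor Fcer1a had a difference of -1.0 (adjusted p = 0.244), the globin Hbb-b2 1.55 (adjusted p = 0.256) and the lymphocyte pore protein Prf1 0.83 (adjusted p = 0.226).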
